A study of Mus musculus with 8 samples.

Results

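The comparison described here sets mouse primary myotubes given oncostatin M (OSM) beside myotubes given leukaemia inhibitory factor (LIF), and asks which transcripts tell the responses to the 2 cytokines apart. It rests on 4 of the 8 RNA-seq libraries of the series, 2 with OSM and 2 with LIF, which were picked by the group named in the sample labels. Myotubes are the multinucleated fibres that muscle precursor cells (myoblasts) form in culture. Per the labels' protocols, wild-type myoblasts were isolated from the limbs of mouse pups 2 to 3 days old, grown with 20% fetal bovine serum and 2.5 ng/ml bFGF and differentiated in 5% horse serum. OSM, LIF or interleukin 6 (IL6) was given at 250 ng/ml for 48 h, and all cultures, the untreated controls included, were harvested 72 h after differentiation began. All 4 groups share the wild-type cells, the media and the RNA kit. The labels do not say whether the 2 libraries of a group are separate animals or dishes, so p-values measure only the spread between these libraries, which may be technical. They also do not give the species of the cytokines.

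OSM and LIF are sister cytokines of the IL6 family, and both need the signalling subunit gp130, the product of Il6st. LIF pairs gp130 with the LIF receptor (Lifr). In the mouse OSM works mainly through a complex of gp130 and the OSM receptor (Osmr), whereas human OSM acts on mouse cells through the LIF receptor. Both complexes activate JAK kinases, the transcription factor STAT3 and the MAP kinase ERK, and SOCS3 is the feedback inhibitor that STAT3 induces. In skeletal muscle the family is known for effects on satellite cell proliferation, regeneration and wasting.

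Of 15603 genes tested, 1251 (8.02%) differed between OSM and LIF at an adjusted p under 0.05 in edgeR's quasi-likelihood test. OSM was the higher for 634 (4.06% of the genes tested) and LIF the higher for 617 (3.95%). Among the gene lists followed here, those of mitosis and DNA replication were lower with OSM, while called ERK-responsive, acute phase and extracellular proteolysis genes were mostly higher with OSM. Levels are given as CPM, counts relative to the library total after TMM, a normalisation for library composition. The differences were modest for most genes, with a median log2 difference of 0.47 among those higher with OSM and −0.60 among those lower. A fitted difference of at least 2-fold was reached by 290 of the called genes, 114 higher with OSM and 176 higher with LIF. How many genes were called depended on the libraries fitted. There were 2904 with only the OSM and LIF libraries in the fit, 440 without LIF replicate 1, 614 without LIF replicate 2, 450 without OSM replicate 1 and 640 without OSM replicate 2. Of the 634 genes higher with OSM, the control mean lay below both cytokines for 428, between them for 182 and above both for 24. Of the 617 higher with LIF, it lay above both cytokines for 416, between them for 136 and below both for 65, so most genes on the LIF side were lower than in untreated cultures with either cytokine.

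**Figure D1:**
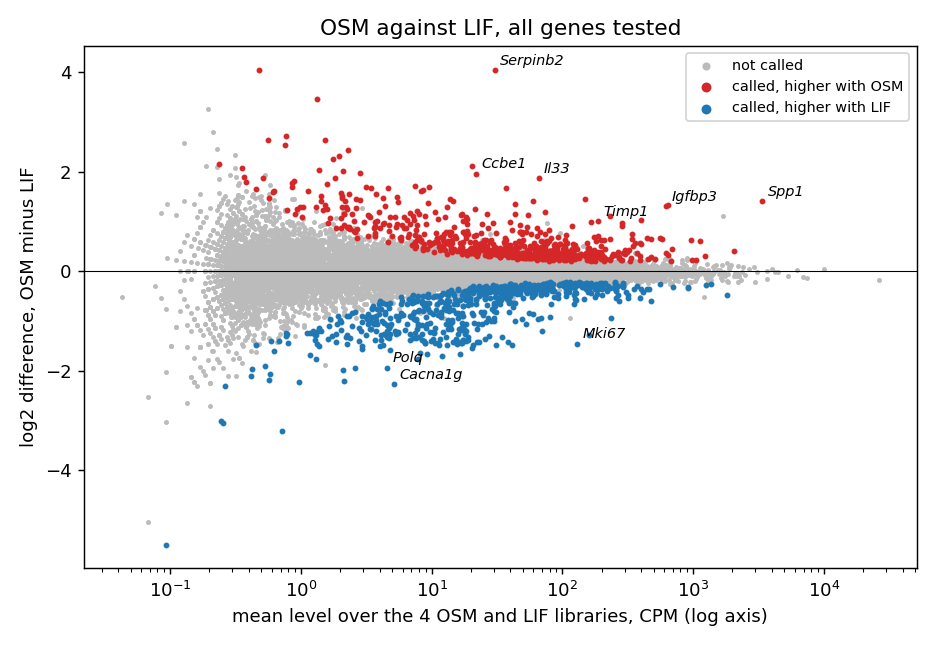
Each point is 1 of the 15603 genes tested, with its mean level over the 4 OSM and LIF libraries in CPM (log axis) and its log2 difference, OSM minus LIF, on the vertical axis. Red points were called higher with OSM and blue points higher with LIF, Serpinb2 stands out at 4.04 among genes above 10 CPM, and Cacna1g lies at −2.27.

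Total counts ran from 29482077 to 30025471 per library over the whole series. The mean chi-square per gene between replicates was 2.89 for LIF and 4.98 for OSM, so no library was a copy of its partner. A value of 1 would reflect counting error only. For control it was 9.33 and for IL6 11.4. The fit takes its spread from all 8 libraries, so p-values between OSM and LIF also carry the wider spread of control and IL6.

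The sequences below show the stretches before the start of genes from several groups. They are Serpinb2 and Plaur on the OSM side, mitosis genes lower with OSM, and some interferon-response genes called higher with LIF. Of 44 interferon-response genes tested, 38 were not called. The sequences come from RefSeq on GRCm38.p6, another build than the one the reads were aligned to. They run 5′ to 3′ on the gene's strand and end at the base before its most upstream annotated start. Capitals mark matches, on either strand, to AP-1 (TGANTCA) in the first pair, to the CCAAT box (CCAAT) and the cell cycle homology region (CHR, TTTGAA) in the mitosis genes, and to the core of the interferon-stimulated response element (ISRE: GAAA, any 2 bases, GAAA) in the interferon genes. In Igtp the capitals also mark a STAT site (TTCNNNGAA), and matches to other motifs are left in lower case.
Serpinb2, chr1:107511313-107511422, plus strand: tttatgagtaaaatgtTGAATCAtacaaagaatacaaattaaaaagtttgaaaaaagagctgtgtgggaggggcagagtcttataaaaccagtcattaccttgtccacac
Plaur, chr7:24462393-24462482, plus strand: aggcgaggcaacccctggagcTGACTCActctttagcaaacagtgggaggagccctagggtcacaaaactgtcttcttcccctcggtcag
Cdc20, chr4:118437344-118437423, minus strand: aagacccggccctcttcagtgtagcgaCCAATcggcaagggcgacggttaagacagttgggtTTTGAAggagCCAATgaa
Kif11, chr19:37376302-37376381, plus strand: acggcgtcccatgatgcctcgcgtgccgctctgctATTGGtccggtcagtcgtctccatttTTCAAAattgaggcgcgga
Ccnb2, chr9:70421555-70421654, minus strand: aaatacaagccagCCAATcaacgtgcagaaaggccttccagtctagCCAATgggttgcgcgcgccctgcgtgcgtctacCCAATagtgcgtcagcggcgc
Ifit1, chr19:34640769-34640888, plus strand: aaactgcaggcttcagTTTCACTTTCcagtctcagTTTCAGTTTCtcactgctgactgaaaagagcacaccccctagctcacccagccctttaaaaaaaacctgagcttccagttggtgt
Igtp, chr11:58199476-58199555, plus strand: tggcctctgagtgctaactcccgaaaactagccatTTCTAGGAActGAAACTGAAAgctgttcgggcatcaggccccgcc
Irgm1, chr11:48871421-48871500, minus strand: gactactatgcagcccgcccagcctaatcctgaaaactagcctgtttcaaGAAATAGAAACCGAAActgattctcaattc

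In the 250 bases before the start, the CCAAT box was found in 23 of the 30 mitosis genes with a promoter in the table (76.7%), against 34.5% of all 27018 promoters of that length, and the CHR in 9 of 30 (30%) against 16.3%. An AP-1 match was found in 5 of 19 proteolysis genes (26.3%), in 9 of 36 interferon genes (25%) and in 1 of 16 ERK-responsive genes (6.25%), against 6.85% of all promoters. No AP-1 match was found in the 30 mitosis genes. An ISRE core was found in 16 of 36 interferon genes (44.4%, against 3.05%). The capitals show 3 CCAAT boxes in Ccnb2 and overlapping ISRE cores in Irgm1. A match is a description of the letters and not a measured binding site.

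No receptor subunit gene was called between the cytokines. Of 9 gp130 family receptor genes 7 were tested and 0 called, and of 9 ligand genes 6 were tested and 0 called, in edgeR and with the DESeq2 Wald test, against 8.02% of all genes in edgeR. Counts of 0 among so few genes say little beside that share. At an unadjusted p under 0.05 in edgeR, 1 receptor gene was higher with OSM and 1 lower, and 2 ligand genes were higher. Osmr had 108 and 104 CPM with LIF and 95.8 and 108 CPM with OSM, with overlapping groups and a log2 difference of −0.06 (95% interval −0.24 to 0.11). Lifr had 107 and 117 CPM with LIF and 123 and 131 CPM with OSM, a log2 difference of 0.18 (interval −0.02 to 0.38, adjusted p 0.299 in edgeR). Il6st had 567 and 543 CPM with LIF and 486 and 499 CPM with OSM, a log2 difference of −0.17 (adjusted p 0.195). Il6ra, which encodes the IL6-binding subunit, had 7.40 and 8.34 CPM with LIF and 9.85 and 10.9 CPM with OSM, a log2 difference of 0.40 (interval 0.12 to 0.67) that missed the threshold after adjustment (adjusted p 0.0787). Lifr, Il6st and Il6ra passed when only the OSM and LIF libraries were fitted, at adjusted p of 0.0183, 0.00676 and 0.0191. Il6ra also passed without the IL6 libraries and without either one of them (4 of 16 alternatives in all), and its adjusted p reached 0.501 in the others. Per kilobase of exon, the level with OSM was 44.4 CPM for Il6st, 11.8 for Lifr, 8.40 for Osmr and 1.199 for Il6ra, and the order was the same with LIF at 50.004, 10.4, 8.78 and 0.91. The transcript of Lif was at 8.64 and 7.87 CPM with LIF and 10.98 and 8.72 CPM with OSM. Il6 had 46 and 40 counts with LIF and 40 and 47 with OSM, so neither ligand gene was far apart between the groups. Osm gave 0 counts in all 4 libraries, which allows up to 3 counts in each.

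The direct STAT3 feedback gene Socs3 was raised to nearly the same level by both cytokines. It had 41.6 and 44.2 CPM in control, 117 and 120 with LIF and 110 and 111 with OSM. The log2 difference between OSM and LIF was −0.10 (95% interval −0.23 to 0.03, adjusted p 0.395), which bounds it well within the rise over control of 1.37 with OSM and 1.47 with LIF. Of 16 inhibitors of JAK-STAT signalling (SOCS, PIAS and phosphatase genes), 1 was called, near the share of 8.02% over all genes. The called gene was Ptpn1, which encodes a phosphatase acting on JAKs. It went from 50.05 and 49.8 CPM with LIF to 68.0 and 59.5 with OSM (log2 difference 0.35, adjusted p 0.0098 in edgeR). Its call was lost without LIF replicate 1, LIF replicate 2 or OSM replicate 1, at an adjusted p of up to 0.188. The median log2 difference over the 16 was 0.02, beside −0.000606 over all genes tested.

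Some other STAT3 target genes were called. Of 22 tested, 5 were higher with OSM and 1 lower, against 4.06% and 3.95% of all genes, with a median of −0.01. Without any 1 of the 4 OSM and LIF libraries 3 were called higher and 0 lower. Timp1, an inhibitor of matrix metalloproteinases, had 127 and 122 CPM with LIF and 255 and 243 with OSM, a log2 difference of 1.002 (SE 0.07, adjusted p 4.78e-06), above 75.8 and 66.0 CPM in control. Il4ra, the signalling subunit for IL4 and IL13, had 137 and 147 CPM with LIF and 243 and 224 with OSM (log2 difference 0.72, SE 0.08), and control lay at 62.8 and 73.6. Serpina3n, a secreted protease inhibitor of the acute phase, had 0.721 and 1.44 CPM in control, 16.5 and 18.7 with LIF and 53.7 and 58.8 with OSM. All 3 genes were thus higher with LIF than in control and higher again with OSM, with no overlap between groups. The exception was Lbp, a lipopolysaccharide-binding acute phase protein gene, at 13.9 and 15.3 CPM with LIF and 6.05 and 7.25 with OSM (log2 difference −1.13, adjusted p 0.021), a call lost without any 1 of the 4 OSM and LIF libraries and when genes with few counts were kept (adjusted p up to 0.166).

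Among the JAK and STAT genes, 2 of 10 were called higher with OSM (Tyk2 and Stat5a) and 1 lower (Stat2), against 4.06% and 3.95% of all genes. Stat5a had 45.3 and 44.2 CPM with LIF and 52.7 and 56.2 with OSM, against 25.2 and 25.9 in control. Stat2, which carries the type I interferon signal, had 50.1 and 47.2 CPM with LIF and 37.9 and 40.5 with OSM. These differences of 0.28 and −0.31 on the log2 scale were each lost without any 1 of the OSM and LIF libraries, at an adjusted p of up to 0.20 and 0.31. That of Tyk2, 0.38, was lost without LIF replicate 1, OSM replicate 1 or OSM replicate 2 (adjusted p up to 0.31). For Stat3 the log2 difference was −0.04 (95% interval −0.17 to 0.08).

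Many ERK-responsive genes were higher with OSM. Of 27 tested, comprising immediate early genes, phosphatases that switch ERK off, and ligands of the EGF receptor, 13 were called higher with OSM and 0 lower, against 4.06% and 3.95% of all genes, and the median log2 difference was 0.41. Dusp4, a nuclear ERK phosphatase gene, had 52.3 and 56.2 CPM with LIF, as in control (52.3 and 52.0), and 84.9 and 80.1 with OSM (log2 difference 0.61, SE 0.07, adjusted p 7.44e-05). The immediate early transcription factor gene Egr2 had 11.2 and 12.9 CPM with LIF and 25.9 and 24.3 with OSM (log2 difference 1.06, SE 0.14, adjusted p 0.000463), where control had 9.98 and 8.63. Neither gene was called with LIF against control (adjusted p 0.72 and 0.206), and both were called with OSM. Dusp5 went from 9.82 and 10.3 to 19.4 and 15.2 CPM (adjusted p 0.00206, and 0.0508 without OSM replicate 1). Plaur, the receptor of urokinase, went from 20.7 and 19.1 to 29.6 and 27.9 CPM (adjusted p 0.00319, and up to 0.0659 without LIF replicate 2 or OSM replicate 1). In all 4 genes both OSM libraries lay above both LIF libraries.

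Set beside the same controls, the list had 14 members called higher and 3 lower with OSM (10.7% and 10.5% of all genes), and 1 higher and 4 lower with LIF (4.18% and 3.52% of all genes). The count between the cytokines changed when a library was left out. It was 2 without OSM replicate 1, 8 without OSM replicate 2, 6 without LIF replicate 1 and 4 without LIF replicate 2, while the median stayed between 0.36 and 0.46 over all libraries left out in turn. With only the OSM and LIF libraries fitted it was 20 higher and 1 lower.

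**Figure D2:**
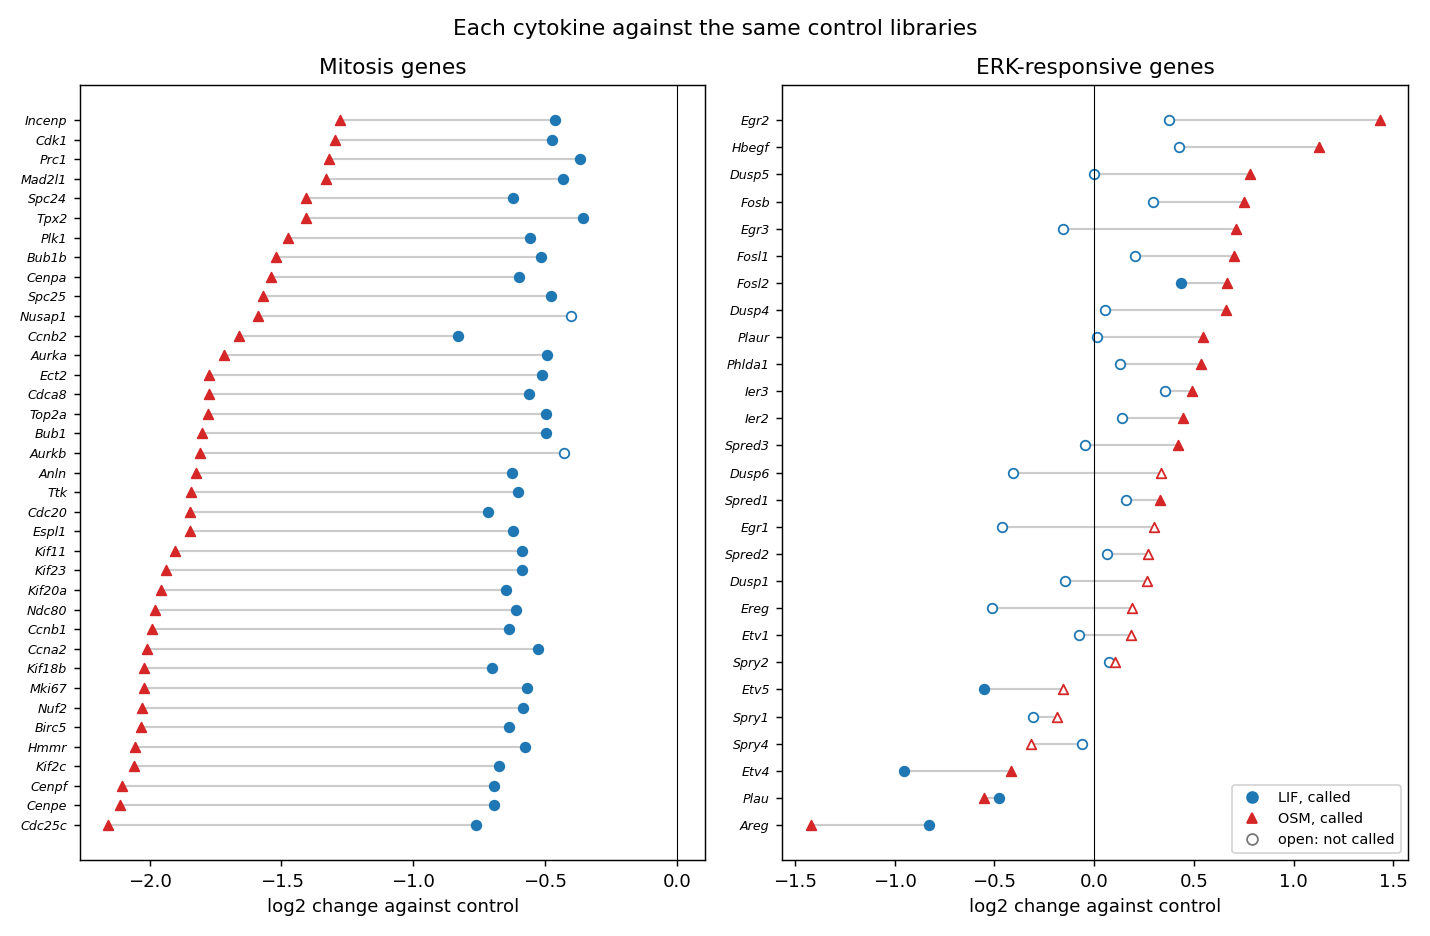
Log2 change of each tested mitosis gene (left, 37) and ERK-responsive gene (right, 27) with LIF (blue circles) and OSM (red triangles) against the same control libraries; open symbols were not called, and a grey line joins the values of 1 gene. With OSM all 37 mitosis genes were called lower and with LIF 35, whereas among ERK-responsive genes 14 were called higher with OSM and 1 with LIF.

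The gene that separated the cytokines most among those with at least 100 counts was Serpinb2 (ENSMUSG00000062345), which encodes plasminogen activator inhibitor 2. It had 1.17 and 0.94 CPM in control, 3.57 and 3.42 with LIF and 65.6 and 49.3 with OSM, a 16.4-fold difference between the cytokines (log2 4.04, SE 0.20, adjusted p 1.81e-06). In the GENCODE M21 annotation 12.4% of its exon bases overlap Serpinb10 on the same strand, and its upstream sequence with a single AP-1 match is printed above. Il33, an alarmin cytokine, had 9.40 and 9.70 CPM in control, 29.2 and 27.4 with LIF and 108 and 99.4 with OSM (log2 difference 1.87, SE 0.13). Ccbe1, a secreted factor needed to process the lymphatic growth factor VEGFC, had 2.78 and 4.47 CPM in control, 8.34 and 9.48 with LIF and 33.6 and 35.8 with OSM (log2 difference 1.96, SE 0.15). In these 3 genes and in Serpina3n and Prg4 the order was control, LIF, OSM with no overlap. Prg4, which encodes the joint lubricant lubricin, had 7.01 CPM in both OSM libraries against 2.19 and 2.21 with LIF.

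Car3, the carbonic anhydrase of slow muscle fibres, differed in another way. It had 24.98 and 18.8 CPM in control, 3.80 and 5.19 with LIF and 14.7 and 14.3 with OSM, so it was higher with OSM than LIF (log2 1.68, SE 0.17, adjusted p 6.02e-05), and both cytokines left it below control. The other leading genes on the OSM side were AA467197 (log2 difference 1.72), Disp2 (1.64), Try5 (1.67) and Prl2c3 (2.12). Try5, a trypsin gene, shares 47.6% of its 50-base words with other genes, and Prl2c3, a prolactin family gene, 60.0%, so their counts cannot be assigned to 1 gene with certainty. Prl2c3 also lost its call when genes with few counts were kept (adjusted p 0.0627) and when the other groups were left out of the fit (0.152).

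**Figure D3:**
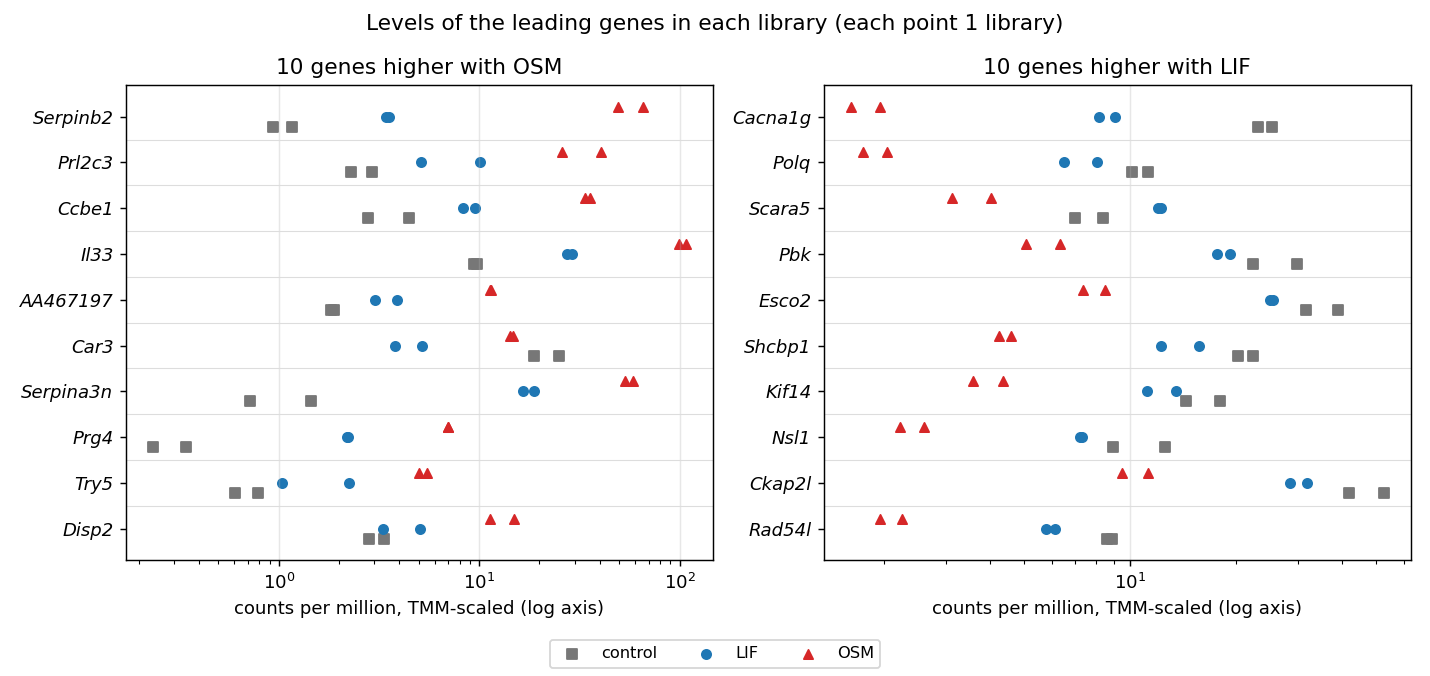
Level of each of the 10 leading genes higher with OSM (left) and higher with LIF (right) in each control, LIF and OSM library, in TMM-scaled CPM on a log axis. OSM and LIF libraries do not overlap for any of the 20, which the choice of genes required; Car3 lies below control with both cytokines, furthest with LIF, and control lies between the cytokines for Scara5.

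Extracellular proteolysis genes were changed in both directions. Of 29 tested, 12 were higher with OSM and 4 lower, against 4.06% and 3.95% of all genes, with a median log2 difference of 0.12, and the 12 fell to 8 without OSM replicate 1 and stayed between 9 and 10 without each other OSM or LIF library. The plasminogen system was represented by Serpinb2, by Plaur and by Plat, the tissue-type plasminogen activator, at 54.7 and 59.1 CPM with LIF and 100 and 102 with OSM (log2 difference 0.83, SE 0.07, adjusted p 1.6e-05). Loxl3, a collagen crosslinking enzyme gene, had 19.0 CPM in both LIF libraries and 35.4 and 34.4 with OSM (log2 difference 0.88, SE 0.10), and Timp1 is given above. The 4 lower members were Mmp11, Mmp15, Adamts1 and Adamts5, all metalloproteinase genes, with log2 differences from −0.24 to −0.39. They are named after their values were seen, and 0 or 1 of the list's lower members was left without any 1 OSM or LIF library.

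Matrix genes were called in both directions, 6 of 38 higher and 6 lower, against 4.06% and 3.95% of all genes, with a median of 0.03. Those higher were led by Ccbe1, the matricellular gene Ccn1 (43.8 and 46.2 CPM with LIF, 101 and 104 with OSM), Tnc, encoding tenascin C (155 and 136 against 332 and 301), and Col8a1 (59.8 and 63.9 against 90.3 and 91.9). For Tnc the LIF libraries overlapped the controls (181 and 131 CPM), and for Col8a1 it was OSM whose level lay nearest to control (97.7 and 100 CPM). Without 1 OSM or LIF library, 6 matrix genes were called higher in each case and 3 to 5 lower.

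Acute phase and complement genes were higher with OSM for 7 of 16 tested and lower for 1, against 4.06% and 3.95% of all genes, with a median log2 difference of 0.65. C3, the central complement component, had 4.67 and 4.30 CPM in control, 11.8 and 11.7 with LIF and 22.4 and 27.6 with OSM (log2 difference 1.09, SE 0.11, adjusted p 5.4e-05). Masp1, a protease of the lectin pathway, had 37.3 and 36.4 CPM with LIF, near the 36.1 and 33.2 of control, and 63.6 and 60.4 with OSM (log2 difference 0.75, SE 0.10). The count of 7 was 3 or 4 without any 1 of the OSM and LIF libraries. Among the 19 receptors for IL4, IL13 and other inflammatory cytokines 7 were higher and 2 lower, beside the same 4.06% and 3.95%, and the 7 became 2 without OSM replicate 1 or LIF replicate 1, 3 without OSM replicate 2 and 4 without LIF replicate 2. Il13ra1 had 258 and 269 CPM with LIF and 337 and 335 with OSM (log2 difference 0.35, adjusted p 0.00555), a call lost without LIF replicate 1, OSM replicate 1 or OSM replicate 2 (adjusted p up to 0.12). Its decoy relative Il13ra2 was scarce, at 0.874 and 0.569 CPM with LIF and 2.16 and 2.75 with OSM. Of 17 chemokine and inflammatory cytokine genes tested, 2 were higher with OSM (Il33 and Cxcl10) and 1 lower, against 4.06% and 3.95% of all genes. The lower gene was Cx3cl1 (log2 difference −0.71, adjusted p 0.0014 in edgeR). It had 83.3 and 94.0 CPM in control, 47.9 and 55.5 with LIF and 32.9 and 30.3 with OSM.

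Of the insulin-like growth factor genes, Igfbp3, whose product binds IGF1 in the extracellular space, rose most. It had 129 and 131 CPM in control, 356 and 364 with LIF and 919 and 861 with OSM, a log2 difference between the cytokines of 1.31 (SE 0.09, adjusted p 7.45e-06). Igfbp7 had 66.1 and 61.9 CPM with LIF and 104 and 98.7 with OSM. Igfbp5 went the other way, from 2083 and 2171 CPM with LIF to 1477 and 1593 with OSM (log2 difference −0.47, adjusted p 0.00115, and 0.0503 without OSM replicate 1). In all, 2 of 13 genes of the list were higher and 2 lower, against 4.06% and 3.95% of all genes.

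Mitosis genes were higher with LIF than with OSM. All 37 mitosis genes were called lower with OSM, against 3.95% of all genes, with a median log2 difference of −1.26 and single values from −1.48 to −0.78. Mki67, the gene of the proliferation marker Ki-67, had 260 and 301 CPM in control, 195 and 184 with LIF and 62.6 and 75.6 with OSM, a 2.74-fold difference between the cytokines (log2 −1.45, SE 0.09, adjusted p 3.36e-06). Ccna2, encoding cyclin A2, had 47.7 and 43.8 CPM with LIF and 15.7 and 17.0 with OSM (log2 −1.48, SE 0.10). Kif11, a spindle motor gene, had 51.5 and 46.5 against 18.5 and 20.9 CPM, and Birc5, encoding survivin, 28.2 and 24.6 against 10.06 and 9.9996 CPM. LIF libraries lay between control and OSM in each of these 4 genes, with no overlap. Against control, the median of the list was −1.82 with OSM and −0.58 with LIF, so both cytokines lowered these transcripts and OSM lowered them further. Without each library in turn 35 to 37 members were called between OSM and LIF. Because these are bulk libraries, fewer cycling cells and less RNA of these genes per cell cannot be told apart.

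DNA replication genes followed with 26 of 36 lower with OSM and 0 higher (median −0.57), and DNA repair genes with 18 of 25 lower and 0 higher (median −1.12). Over all genes tested 3.95% were lower and 4.06% higher. Pole, the catalytic subunit of polymerase epsilon, had 22.4 and 23.7 CPM in control, 15.7 and 15.6 with LIF and 5.61 and 5.94 with OSM (log2 −1.44, SE 0.11). Tk1, the salvage enzyme thymidine kinase, had 19.5 and 18.8 CPM with LIF and 6.94 and 6.88 with OSM, and Mcm5, of the replicative helicase, 15.4 and 14.0 against 6.23 and 6.24. Polq, which encodes the end-joining polymerase theta, was at 8.04 and 6.50 CPM with LIF and 1.74 and 2.05 with OSM (log2 −1.94, SE 0.18). Brca1 had 23.8 and 22.9 against 10.1 and 11.5 CPM and Fancd2, of the Fanconi anaemia pathway, 12.98 and 13.3 against 4.10 and 5.57. Without 1 OSM or LIF library 18 or 19 replication genes and 12 to 16 repair genes were called. Of the 10 genes that led the LIF side, Polq, Pbk, Esco2, Shcbp1, Kif14, Nsl1, Ckap2l and Rad54l are known for roles in the cell cycle, chromosome segregation or repair, with log2 differences from −1.50 to −1.94. Of the 9 tested cell cycle inhibitor genes 0 were called in edgeR or by the DESeq2 Wald test, against 8.02% of all genes in edgeR. Beside that share, 0 of 9 says little about these genes. Their median was −0.09, and 4 were lower at an unadjusted p under 0.05 in edgeR. With only the OSM and LIF libraries in the fit, 1 of these 9 was called higher and 4 lower.

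The remaining leaders of the LIF side were Cacna1g and Scara5. Cacna1g, a T-type calcium channel subunit gene, had 25.3 and 23.2 CPM in control, 9.05 and 8.17 with LIF and 1.61 and 1.95 with OSM, a 4.83-fold difference between the cytokines (log2 −2.27, SE 0.20, adjusted p 1.52e-05). Scara5, a ferritin receptor gene, had 6.9998 and 8.39 CPM in control, 12.2 and 11.99 with LIF and 3.11 and 4.03 with OSM (log2 −1.76, SE 0.19, adjusted p 7.66e-05). Cacna1g was thus lowered by both cytokines, while the control level of Scara5 lay between them.

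**Figure D4:**
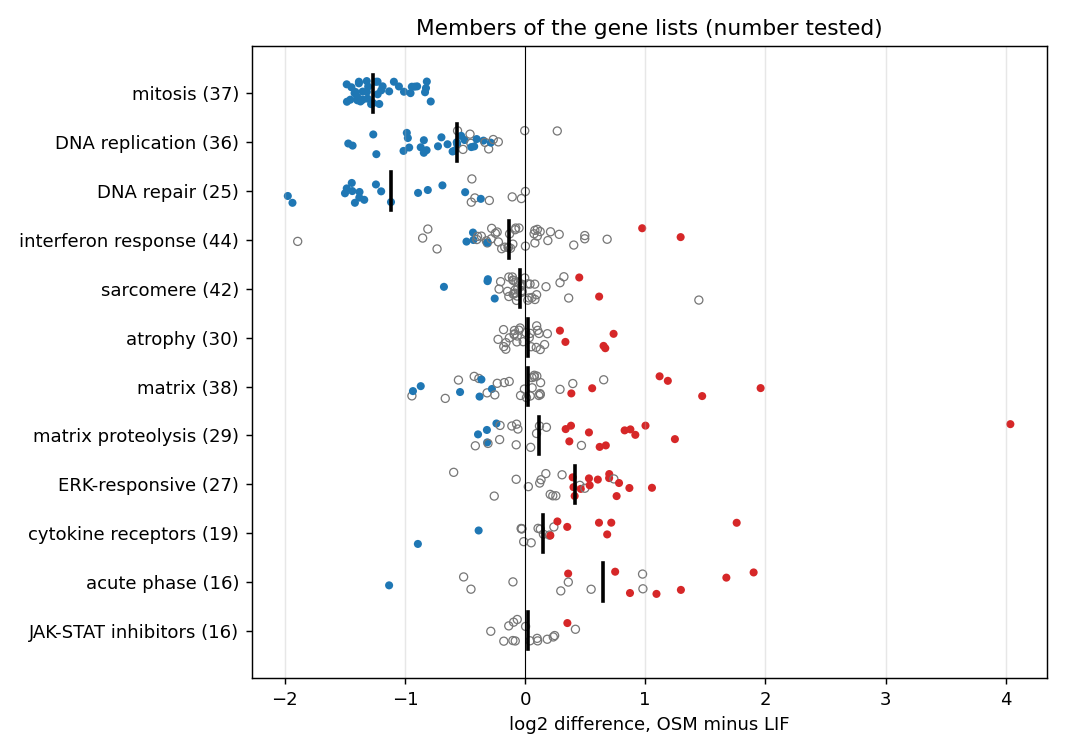
Log2 difference, OSM minus LIF, of each tested member of 12 gene lists; filled points were called (red higher with OSM, blue higher with LIF), open points were not, vertical position within a row has no meaning, and the black bar is the list median. The mitosis row lies wholly below 0 (median −1.26) and the ERK-responsive row mostly above it (median 0.41), while the sarcomere (−0.04) and atrophy (0.02) medians are near 0.

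Few interferon-response genes were called between the cytokines. Of 44 tested, 4 were higher with LIF and 2 higher with OSM, beside 3.95% and 4.06% of all genes. Counts so near these shares say little about the list. The median log2 difference was −0.13. Against control, 18 members were called higher and 4 lower with OSM (10.7% and 10.5% of all genes). With LIF, 12 were called higher and 0 lower (4.18% and 3.52% of all genes). Ifit1, an antiviral RNA-binding protein gene with a pair of ISRE cores printed above, had 9.20 and 9.77 CPM in control, 71.3 and 67.4 with LIF and 44.5 and 54.4 with OSM (log2 difference −0.49, SE 0.10, adjusted p 0.00737). The GTPase genes Igtp and Irgm1 had 36.5 and 41.1 against 28.2 and 29.4 CPM, and 22.1 and 21.3 against 15.1 and 17.1 CPM. Igtp with OSM lay at the control level (31.6 and 29.6 CPM). The fourth was Stat2, given above. Each of these calls depended on single libraries. That of Ifit1 was lost without LIF replicate 1 or OSM replicate 1 (adjusted p up to 0.161), that of Igtp without LIF replicate 2 or either OSM library (0.159) and that of Irgm1 without any 1 of the 4 (0.297). Cxcl10, a chemokine induced by interferon, was higher with OSM at 5.44 and 6.11 CPM against 2.69 and 3.18 (log2 difference 0.97, adjusted p 0.00642), lost without LIF replicate 1 or OSM replicate 2 (0.115). Igtp shares 11.8% of its 50-base words with Irgm2.

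Some genes were raised by LIF but not, or less, by OSM. They are named after their values were seen. Gpr20, an orphan receptor gene, had 8.78 and 7.09 CPM in control, 20.1 and 16.4 with LIF and 8.04 and 8.39 with OSM (log2 difference −1.15, SE 0.18, adjusted p 0.00222). Acox2, a peroxisomal oxidase gene, had 25.7 and 22.6, 40.0 and 36.4, and 21.8 and 22.3 CPM in the same order (log2 difference −0.79, adjusted p 0.00018). In both genes the OSM libraries lay at the level of the controls. Rxfp1, the relaxin receptor gene, had 16.4 and 14.0 CPM with LIF and 8.11 and 8.62 with OSM (adjusted p 0.00352, and up to 0.0779 without LIF replicate 1 or OSM replicate 1).

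The control mean lay between the cytokines for 182 of the 634 called genes higher with OSM and 136 of the 617 higher with LIF. Calls in opposite directions require a gene to pass the threshold in each contrast and were fewer. Only 8 genes were called against control with both cytokines in opposite directions and also called between them. Ccn1, Actb, Rai14 and Hmga2 were higher with OSM and lower with LIF than in control, and Odc1, Scara5, Cdsn and Fndc1 the reverse. These names follow the count and not the rule for naming genes, apart from Ccn1 and Scara5. Hmga2, a chromatin protein gene of growing cells, had 36.7 and 37.4 CPM in control, 24.0 and 29.0 with LIF and 54.7 and 51.0 with OSM. Odc1, the first enzyme of polyamine synthesis, had 199 and 193 CPM in control, 234 and 237 with LIF and 171 and 167 with OSM, and 24.3% of its 50-base words occur in other genes. Fndc1 had 41.5 and 51.0, 56.8 and 58.1, and 28.4 and 29.3 CPM in that order. For all 8, the difference between OSM and LIF held without each library in turn, but the call of LIF against control was lost without at least 1 of the control, LIF or OSM libraries, at an adjusted p of up to 0.29 for Fndc1 and 0.273 for Actb. That of OSM against control was also lost for Hmga2, Odc1 and Cdsn without OSM replicate 1.

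Lists of muscle genes had medians near 0 between the cytokines, with some members called. Of 42 sarcomere genes, 2 were higher with OSM and 4 lower, against 4.06% and 3.95% of all genes, and the median was −0.04. Without OSM replicate 1 or LIF replicate 1, 0 were called in either direction. Mybpc2, the fast isoform of myosin-binding protein C, had 10.9 and 10.04 CPM in control, 24.96 and 21.7 with LIF and 12.9 and 16.3 with OSM (log2 difference −0.67, adjusted p 0.00718). Actn3, the fast fibre actinin gene, had 330 and 310 against 255 and 261 CPM, and Tnnt1, the slow troponin T gene, 1039.8 and 983 against 819 and 810.1 CPM. All 3 calls were lost without LIF replicate 1 or OSM replicate 1, at an adjusted p of up to 0.15, 0.173 and 0.117. Of 18 myogenic regulators 1 was called, Pax7, against 8.02% of all genes. Myog was at 842 CPM in both LIF libraries and 820 and 752 with OSM (log2 difference −0.10, 95% interval −0.29 to 0.09). Of 30 atrophy genes 5 were higher with OSM and 0 lower, against 4.06% and 3.95% of all genes, with a median of 0.02. Fbxo32, which encodes the ubiquitin ligase atrogin-1, had 55.3 and 62.8 CPM in control, 79.0 and 80.7 with LIF and 137 and 129 with OSM (log2 difference 0.74, SE 0.07, adjusted p 2.94e-05). The 5 became 1 or 2 without any 1 of the OSM and LIF libraries, and Fbxo32 was called in each case. The metallothionein genes Mt1 and Mt2, also in that list, had 337 and 352 against 591 and 504 CPM and 446 and 456 against 753 and 666 CPM, calls that were lost without either control library, without LIF replicate 1, LIF replicate 2 or OSM replicate 1, and when genes with few counts were kept (adjusted p up to 0.143 and 0.174). That of Mt2 was also lost without OSM replicate 2. In M21 73.5% of the exon bases of Mt2 overlap a gene on the opposite strand, and the strand setting of the counting is not given in the sources used here.

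Markers of the cells in the dish were read beside these groups, with 8.02% of all genes called between OSM and LIF. The 12 myotube markers summed to 27930 and 26290 CPM with LIF and to 25470 and 25250 with OSM, and 1 of them, Des, was called lower with OSM. The 9 myoblast markers summed to 1605 and 1569 CPM with LIF and 1685 and 1639 with OSM, and Pax7 and Sdc4 of the 7 tested were called higher with OSM. Both mark undifferentiated muscle cells. Markers of other cells were read in the same way. The 12 fibroblast markers, with Lum and Tcf21 at 0, summed to 101.5 and 109.6 CPM with LIF and 117.8 and 125.2 with OSM. For 12 macrophage markers, with Aif1 and C1qb at 0, the sums were 16.08 and 15.68 CPM with LIF and 17.45 and 15.64 with OSM. For 9 endothelial markers, with Emcn at 0, they were 6.05 and 5.19 CPM with LIF and 6.29 and 6.44 with OSM. The fibroblast sums were 64.7 and 82.8 CPM in control, and between the cytokines Ly6a was called higher with OSM and Cd34 lower. Smooth muscle and pericyte markers summed to 128.6 and 120 CPM with LIF and 113.6 and 114.1 with OSM. Of 5 tested, 0 were called in edgeR or by the DESeq2 Wald test, with a median log2 difference of −0.51. At an unadjusted p under 0.05 in edgeR, 0 were higher with OSM and 1 higher with LIF. Adipocyte markers summed to 0.7399 and 0.3685 CPM with LIF and 1.676 and 1.309 with OSM. Among them only Fabp4 was tested, and it was called higher with OSM at 1.51 and 1.24 CPM against 0.538 and 0.234. Its log2 difference was 1.82 (adjusted p 0.0105 in edgeR), a call lost without LIF replicate 2 or OSM replicate 1. Schwann cell markers summed to 6.29 and 7.738 CPM with LIF and 8.72 and 7.751 with OSM. Of 4 tested, 0 were called by either tool or at an unadjusted p under 0.05 in edgeR. Of the 4 macrophage markers tested Cd68 was higher with OSM, at 4.28 and 3.83 against 2.49 and 2.45 CPM. The calls of Des, Pax7, Ly6a, Cd34 and Cd68 were each lost without any 1 of the OSM and LIF libraries, and that of Sdc4 without LIF replicate 1, LIF replicate 2 or OSM replicate 1, at an adjusted p of up to 0.357. The part of these cells in the matrix, acute phase and proteolysis differences was not tested.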

How the data were processed

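The deposited files hold raw read counts per gene for each library, made by the authors with Trim Galore 0.6.5, STAR 2.7.3a and HTSeq 0.11.1 on GRCm39, per the submitters' processing notes. The annotation release and strand setting are not given in the sources used here. The 5 summary rows, 11.7% to 12.7% of each library, were left out, and 53647 gene rows remained. Symbols, exon overlaps and shared 50-base words come from GENCODE M21 (52094 identifiers matched), and promoters from RefSeq on GRCm38.p6. Genes were kept by filterByExpr (minimum count 10), scaled by TMM and fitted in edgeR 4.0.16 (R 4.3.3) as group means over all 8 libraries, with 4 residual degrees of freedom. P-values of the quasi-likelihood F test were adjusted over all genes of a contrast (Benjamini-Hochberg), with 0.05 as the threshold of a call. SE and 95% intervals come from this fit. Its calls were tried on simulated counts with 200 changed genes, all genes and groups having the same spread. That simulation looked at recovered and false calls and did not check SE or intervals. The limit of 3 counts for a 0 covers counting error only. The members, gene lists and motifs were chosen with earlier results of these data known, and CHR, the CCAAT box and a CArG box, which is not reported, were added later. Named genes come from the 10 largest differences each way among called protein-coding genes that average 100 counts or more and have groups apart. They also come from up to 4 called members per list by lowest adjusted p, and from 10 receptor, ligand and muscle genes. Not every gene chosen this way is given here. Other genes are said to be chosen after their values were seen. Alternatives were DESeq2 1.42.0 (size factors or Wald test), other filters, other libraries in the fit, a replicate block, each library left out, and a 100-base promoter window.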

Additional observations from a re-analysis of the deposited data

How the results depend on the processing

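Of the 111 genes followed between OSM and LIF, 102 were called, and 63 of these kept their call under every alternative; 39 lost it under at least 1, mostly when an OSM or LIF library was left out, and 4 uncalled genes gained one. The counts of 1251 called, 634 higher and 617 lower moved by more than 1.5 times under the 2-fold requirement (290, 114 and 176) and with only the OSM and LIF libraries fitted (2904, 1454 and 1450). Without each library in turn they ran from 440 to 1746, 199 to 906 and 226 to 856. With the replicate number as a block, a pairing the labels do not state, they were 1757, 894 and 863; deviations of same-numbered OSM and LIF libraries correlated at 0.00708. The DESeq2 Wald test called 1173, of which 1100 were shared. An added alternative chosen after seeing the data, edgeR's older quasi-likelihood fit, called 1255. Only uncalled values changed sign: the log2 difference of Il6 ran from −0.072 to 0.138 without each library in turn (below 0 without LIF replicate 2 or OSM replicate 2) and that of Osmr from −0.146 to 0.0209 (above 0 without OSM replicate 1). In the 100-base window the CCAAT box was in 70.0% of mitosis promoters against 19.6% of all, and an ISRE core in 27.8% of interferon promoters against 0.962%. With 2 libraries a group, differences of low genes are limited by counting error.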

Other observations

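Some genes outside the lists with a low adjusted p between OSM and LIF encode secreted or surface proteins, and are named after their values were seen. Spp1, which encodes osteopontin, had 1568 and 1609 CPM in control, 1788 and 1909 with LIF and 5022 and 4802 with OSM (log2 difference 1.41, SE 0.06, adjusted p 1.93e-07 in edgeR). LIF libraries lay a little above control for this gene (adjusted p 0.053, and below the threshold of 0.05 under 7 of 15 alternatives, down to 0.0139), and OSM libraries above both. Ecm1, a matrix glycoprotein gene, had 145 and 156 CPM in control, 358 and 375 with LIF and 919 and 927 with OSM (log2 difference 1.33, SE 0.07). Sdc1, the heparan sulfate proteoglycan syndecan 1, had 129 and 135, 256 and 270, and 550 and 527 CPM in that order (log2 difference 1.03, SE 0.06), so both genes stepped up from control to LIF to OSM. Shc2, an adaptor of receptor tyrosine kinase signalling, had 7.03 and 7.67 CPM with LIF and 20.7 and 19.6 with OSM.

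Some genes of the non-muscle actin cytoskeleton, picked after their values were seen, were also higher with OSM. Actb, a cytoplasmic actin gene, had 376 and 367 CPM with LIF and 605 and 557 with OSM (log2 difference 0.65, SE 0.07), with control between them at 436 and 460. Actg1, the other cytoplasmic actin gene, had 195 and 192 against 399 and 358 CPM, and shares 37.4% of its 50-base words with other actin genes and pseudogenes. Ezr, which links actin to the membrane, had 31.9 and 36.6 against 75.1 and 74.6 CPM, and Tpm4, a cytoplasmic tropomyosin gene, 320 and 308 against 470 and 466. For Actg1, Ezr and Tpm4 the log2 change of LIF against control was between −0.12 and 0.05 and was not called. These genes were picked for their difference, so their shared direction was fixed by the choice. Foxm1, a transcription factor gene that activates mitosis genes, had 26.4 and 23.6 CPM with LIF and 8.93 and 10.2 with OSM (log2 difference −1.38, SE 0.11).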
